A study of Homo sapiens with 6 samples.

Results

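SR proteins, heterogeneous nuclear ribonucleoproteins (hnRNPs) and a set of related splicing regulators were followed in TE-1, a human cell line from an oesophageal squamous cell carcinoma. The members were the genes with at least 1 probe set annotated to their symbol alone, where the symbol started with SRSF or HNRNP or was TRA2A, TRA2B, PTBP1, PTBP2, PTBP3, RBFOX2, CELF1, MBNL1, MBNL2, MBNL3, QKI, ESRP2, SRPK1, SRPK2, CLK1, CLK2, CLK3 or CLK4. This gave 52 of the 18132 genes on the array, read by 230 of the 44988 probe sets with 1 symbol. The study compared cells carrying a stable knockdown of EIF3C, a subunit of the translation initiation factor eIF3, with parental TE-1 cells, on 3 Affymetrix arrays per group. All knockdown RNA came from 1 clone, and the controls were parental cells for which the labels describe no control construct, so the knockdown and the selection of a clone cannot be told apart. The labels call the arrays of a group biological replicates without saying whether the cultures were separate, so a p-value here weighs a difference against the array-to-array spread alone, which may be technical.

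SR proteins bind exonic sequences through RNA recognition motifs and recruit the spliceosome through domains rich in arginine and serine, so that an exon is included. hnRNPs coat nascent transcripts and often oppose SR proteins by keeping exons out, and the balance of the 2 families helps to set which isoforms a cell makes. The kinases of the CLK and SRPK families phosphorylate the arginine and serine repeats, and many genes of both families limit their own output by splicing a poison exon into their transcripts, which are then destroyed by nonsense-mediated decay.

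The label of the knockdown was checked first on EIF3C, whose probe sets are all shared with the near-identical EIF3CL. The brightest of them read 10.69, 10.60 and 10.57 in the control arrays and 8.42, 8.41 and 8.49 in the knockdown arrays on the log2 scale, a level of 22.1% of control (limma, adjusted p = 6.58e-15). Arrays correlated at 0.9977 to 0.9985 within the groups and at 0.9823 to 0.9846 between them, and array medians lay between 6.09 and 6.11. Of the 6 epithelial markers, EPCAM (11.89 in control, 12.10 in knockdown) and CDH1 (11.21 and 11.44) were bright and called higher, and the desmosomal DSG3 was called lower (8.14 and 7.45). The basal keratins KRT5 (5.91 in control) and KRT14 (5.85) were dim and not called, and KRT13 lay below the filter on dim genes. Fibroblast and leukocyte markers had control means of 2.60 to 6.21 and 2.87 to 5.08, and of them COL1A1 was called lower (5.60 in control, 5.39 in knockdown). The 3 endothelial markers had control means of 5.39 to 5.95, of which CDH5 was higher in the knockdown (6.31 against 5.84). The signal at the 3′ end minus that at the 5′ end, a measure of RNA integrity, overlapped between the groups for ACTB (0.55 in control, 0.50 in knockdown) and GAPDH (0.06 in both).

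Each gene was represented by its brightest probe set, and a gene was called changed at an adjusted p under 0.05 (limma, Benjamini-Hochberg over the 13599 genes above the filter). Of the 52 members 50 were tested, since HNRNPCL1 (2.79 in control, 2.86 in knockdown) and HNRNPCL2 (2.92 and 2.95) lay below the filter. Among the tested members 28 were higher in the knockdown and 10 were lower, which is 76% called against 66.5% of all genes tested. In a bulk sample a change in every cell and a change in some of the cells cannot be told apart. The background was 32.4% of genes higher and 34.1% lower. The median difference of the members, knockdown minus control, was 0.14 on the log2 scale, beside -0.03 for all genes. The 2 groups of arrays did not overlap for 41 of the 50, beside 70.3% of all genes.

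The changes of the brightest probe sets were small. None of the members reached 2-fold on them, which 4.82% of all genes did, and the median absolute difference was 0.20 for the members and 0.23 for all genes. A dimmer probe set of HNRNPC (2.23-fold higher) and one of QKI (2.16-fold higher) did pass 2-fold. A change of at least 1.5-fold was seen in 7 members, namely QKI, CLK3, HNRNPDL, HNRNPUL2 and HNRNPH1, which rose, and CELF1 and HNRNPA0, which fell. In all genes 8.84% rose and 7.71% fell by that much. The 85 non-human control probe sets of the array differed by up to 0.22 between the groups, and 15 of the 38 called members (39.5%) differed by no more than that, beside 23.7% of all called genes.

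**Figure D1:**
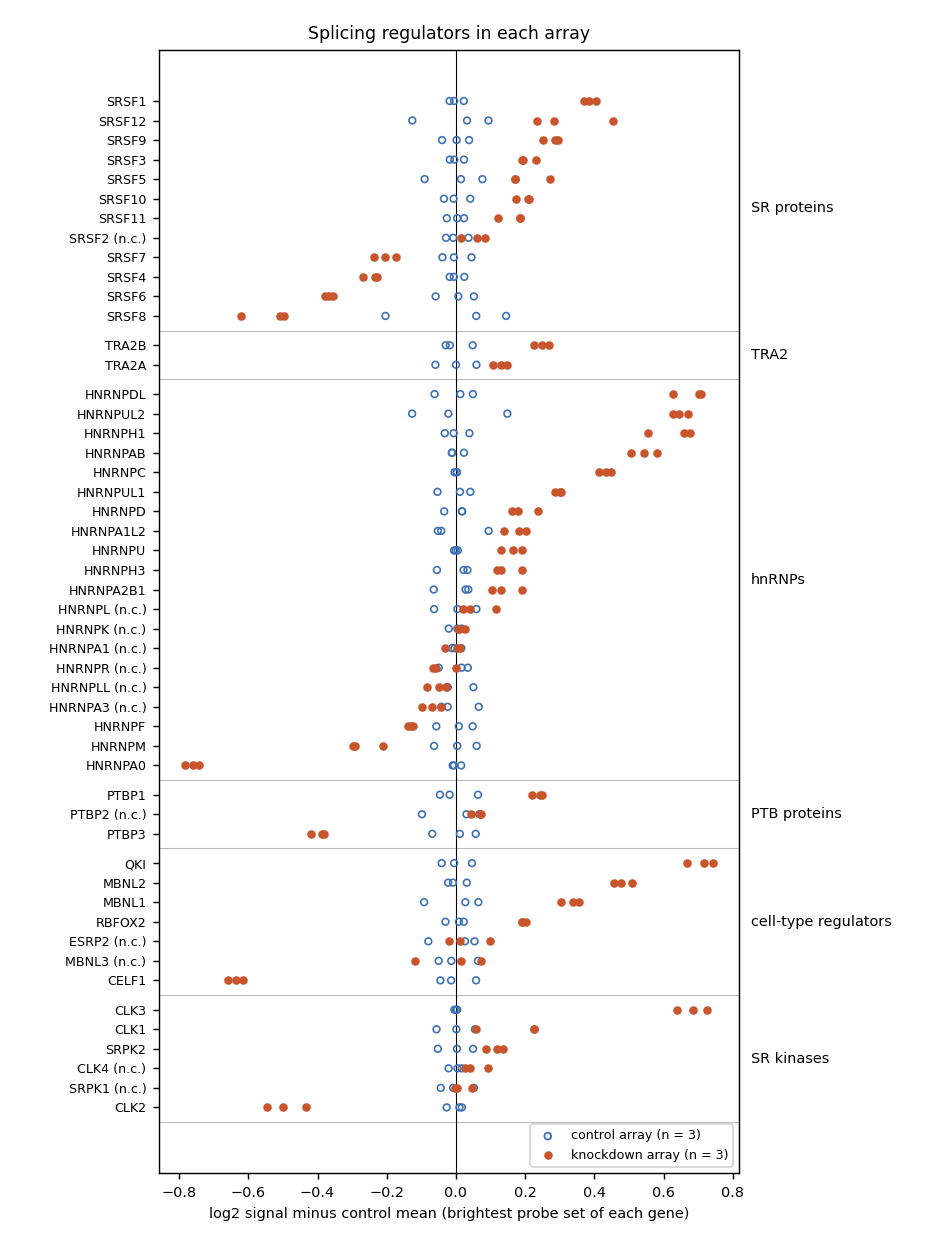
Log2 signal of each of the 50 tested members in each of the 6 arrays, shown as the deviation from the mean of the 3 control arrays, with members grouped by role (n.c., not called). The members range from -0.76 for HNRNPA0 to 0.71 for QKI, and most of the higher members stand only slightly above their controls.

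Among the SR proteins 7 of 12 were higher, 4 were lower and SRSF2 was not called (0.05), with a median of 0.18. SRSF1, an SR protein known as a proto-oncogene product, read 10.98, 10.95 and 10.94 in control and 11.33, 11.36 and 11.34 in knockdown. The groups did not overlap, and the difference was 0.39 (SE 0.02, limma, adjusted p = 1.29e-10). SRSF8, a close relative of SRSF2, read 6.66, 6.58 and 6.32 in control and 6.02, 6.01 and 5.90 in knockdown. Its 3 knockdown arrays were all below its controls. Among brightest probe sets this was the largest difference of the SR proteins, -0.54 (SE 0.08, adjusted p = 2.44e-05), on a dim probe set.

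The other risers of this family were SRSF12 (0.32), SRSF9 (0.28), SRSF3 (0.21), SRSF5 (0.20), SRSF10 (0.20) and SRSF11 (0.16). SRSF12, like SRSF8, was dim, at 5.90 in control. The other fallers were SRSF6 (-0.37), SRSF4 (-0.24) and SRSF7 (-0.20). SRSF1 and SRSF6 changed direction when all probe sets of the gene were averaged (-0.10 and 0.24), and SRSF10 (0.01), SRSF11 (0.06), SRSF12 (0.03) and SRSF3 (0.06) were then not called.

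TRA2A and TRA2B, SR-like proteins that activate exons rich in purines, were both higher. TRA2B read 10.80, 10.88 and 10.81 in control and 11.08, 11.10 and 11.06 in knockdown, a difference of 0.25 (SE 0.03, adjusted p = 2.16e-07). TRA2A read 9.77, 9.83 and 9.89 in control and 9.96, 9.98 and 9.94 in knockdown, a difference of 0.13 (SE 0.03, adjusted p = 0.00248). Neither gene's groups overlapped, but TRA2A was no longer called after quantile normalization (0.08, adjusted p = 0.0573).

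Of the 20 hnRNPs tested 11 were higher and 3 were lower, with a median of 0.14. HNRNPA0, a member of the A/B group that binds AU-rich RNA, showed the largest change of any member on its brightest probe set, which read 9.39, 9.41 and 9.39 in control and 8.66, 8.64 and 8.62 in knockdown. The knockdown level was 59.0% of control, or 1.70-fold lower (difference -0.76, SE 0.03, adjusted p = 3.44e-12). The drop was far larger than the spread of either group, whose SDs were 0.01 and 0.02. The gene's other probe set fell less, by 0.35 to 78.5% of control, and the mean of both fell by 0.56, which is under 1.5-fold.

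HNRNPDL, a relative of HNRNPD (AUF1), read 9.74, 9.81 and 9.85 in control and 10.43, 10.50 and 10.51 in knockdown, 1.60-fold higher (0.68, SE 0.03, adjusted p = 1.27e-11). Its 2 dimmest probe sets fell, with differences of -0.17 and -0.22. HNRNPUL2, a relative of the nuclear scaffold protein HNRNPU, read 7.05, 7.16 and 7.33 in control and 7.85, 7.82 and 7.80 in knockdown (0.65, SE 0.06, adjusted p = 7.72e-08). HNRNPH1, which binds runs of guanine, read 9.24, 9.29 and 9.22 in control and 9.80, 9.93 and 9.91 in knockdown (0.63, SE 0.04, adjusted p = 1.09e-10). The groups of these 3 genes did not overlap, and HNRNPUL2 and HNRNPH1 were each read by 1 probe set.

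HNRNPAB (0.54) and HNRNPC (0.43), which binds uridine tracts, followed below the 1.5-fold line, and then HNRNPUL1 (0.30). HNRNPD (0.19), HNRNPA1L2 (0.17), HNRNPU (0.16), HNRNPH3 (0.15) and HNRNPA2B1 (0.14) were higher by less than the largest difference of the non-human controls. HNRNPM (-0.27) and HNRNPF (-0.13) were the other members to fall. HNRNPF was not called when its probe sets were averaged (-0.05, adjusted p = 0.0774), nor when only probe sets of the types that read 1 gene were used (-0.03, adjusted p = 0.453). HNRNPL, HNRNPK, HNRNPA1, HNRNPR, HNRNPLL and HNRNPA3 were not called on their brightest probe sets, with differences from -0.07 to 0.06. HNRNPA1, a well known repressor of exons, read 12.47, 12.50 and 12.48 in control and 12.45, 12.49 and 12.48 in knockdown, and the groups overlapped.

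The call of HNRNPA1L2 (adjusted p = 0.0344) was lost when any of 5 of the 6 arrays was left out, namely control 2, control 3 or any knockdown array, with adjusted p then 0.0545 to 0.101.

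The polypyrimidine tract binding proteins repress exons next to tracts of uridine and cytidine. PTBP1, the form of most tissues, read 11.19, 11.11 and 11.08 in control and 11.38, 11.37 and 11.35 in knockdown (0.24, SE 0.03, adjusted p = 6.04e-07). PTBP3 read 9.17, 9.22 and 9.09 in control and 8.74, 8.77 and 8.78 in knockdown (-0.40, SE 0.04, adjusted p = 8.93e-08). The groups of both genes were apart, in opposite directions. PTBP2, the neuronal form, was not called (0.06). PTBP3 and HNRNPM turned to higher values, 0.27 and 0.15, when all probe sets of the gene were averaged.

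Regulators that set splicing programmes of particular cell types were higher in 4 of 7 cases and lower in 1, with a median of 0.19. QKI, a STAR-family protein with a role in the formation of circular RNA, had the largest rise of any member among brightest probe sets. It read 8.73, 8.68 and 8.65 in control and 9.35, 9.43 and 9.40 in knockdown. This is 1.63-fold higher (0.71, SE 0.04, adjusted p = 2.7e-11). CELF1, which binds GU-rich RNA, read 10.59, 10.52 and 10.49 in control and 9.90, 9.87 and 9.92 in knockdown, 64.4% of control (-0.64, SE 0.03, adjusted p = 9.04e-12), and its mean over probe sets fell by 0.27. Both changes left a wide gap between the groups.

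MBNL2 (0.48) and MBNL1 (0.33), muscleblind proteins that often act against CELF1 on shared exons, rose while CELF1 fell. RBFOX2 (0.19) was called higher by its brightest probe set, but lower (-0.095, adjusted p = 0.0238) when its probe sets were averaged. The epithelial regulator ESRP2 (0.03) and MBNL3 (-0.01) were not called. MBNL3 was dim (4.80 in control), just above the filter.

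The kinases of SR proteins were split, with 3 of 6 higher and 1 lower. CLK3 read 7.19, 7.18 and 7.19 in control and 7.87, 7.91 and 7.82 in knockdown (0.68, SE 0.05, adjusted p = 1.71e-09). The other CLK3 probe set above the filter rose by 0.49, which is under 1.5-fold. CLK2 went the other way, with 10.06, 10.07 and 10.02 in control against 9.55, 9.62 and 9.50 in knockdown (-0.49, SE 0.03, adjusted p = 7.36e-10). Both kinases had groups that did not overlap. CLK1 (0.17) and SRPK2 (0.11) were called higher, while CLK4 (0.05) and SRPK1 (0.02) were not called. CLK1 was not called without knockdown array 1 or 3 (0.14 in each case, adjusted p = 0.069 and 0.0685), and SRPK2 was not called without knockdown array 3 (adjusted p = 0.0502). SRPK2 was also not called after quantile normalization (0.04, adjusted p = 0.27), nor CLK1 with its probe sets averaged (0.11, adjusted p = 0.0541).

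The other probe sets of each member were then compared with its brightest, as a check on shifts between isoforms. Probe sets of 1 gene can read different parts or forms of its transcripts, and which form each of them reads is not known here because probe positions were not used. Levels differ between probe sets for reasons of the probes alone, so only the changes were compared. A further probe set was counted as different when the change of its signal minus the brightest probe set's signal had an adjusted p under 0.05 (limma, over 18278 pairs of the array), and the pairs of a gene share its brightest probe set.

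In the 42 members with at least 2 probe sets above the filter, 65 of 163 pairs differed (39.9%, against 32.8% of all pairs). A difference of 0.5 or more was seen in 30 pairs (18.4%, against 12.7%), spread over 18 members. In 28 pairs (17.2%, against 5.22%) the further probe set was itself called in the direction opposite to the brightest. These pairs lay in 14 members, namely SRSF1, SRSF3, SRSF5, SRSF6, SRSF10, SRSF11, HNRNPD, HNRNPDL, HNRNPF, HNRNPM, HNRNPU, PTBP3, RBFOX2 and TRA2A. The control and knockdown arrays did not overlap in 26 of the 28 further probe sets, beside 70.3% of all genes on their brightest probe sets. These 28 were picked for being called, which favours separated groups, so the count is no separate support.

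Counted by gene, 15 of 42 members (35.7%) had probe sets called in both directions, the 14 above and CLK4, against 9.00% of genes with at least 2 probe sets. Members have more probe sets than most genes, with a median of 4.5 against 3. Among genes with at least 4 the shares were 52% of members (13 of 25) and 16.4% of all genes (413 of 2515). For the genes of the splicing machinery and other regulators listed further on, the share was 16.3% (15 of 92) with at least 2 probe sets. With at least 4 it was 25.6% (10 of 39). Most of those 15 lay in the list of other splicing regulators, namely BCLAF1, THRAP3, SON, DAZAP1, NONO, PCBP2, RBM25, PNISR, ELAVL1 and PNN. The rest, in the other lists, were EFTUD2, PRPF38A, PPP1CB, RBM8A and MAGOHB. Probe sets called in both directions were thus not particular to the members. By role, members with both directions were 6 of 9 SR proteins, 5 of 17 hnRNPs, 1 of 3 polypyrimidine tract binding proteins, 1 of 2 TRA2 genes, 1 of 5 cell-type regulators and 1 of 6 kinases. The differences between these shares were not tested.

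**Figure D2:**
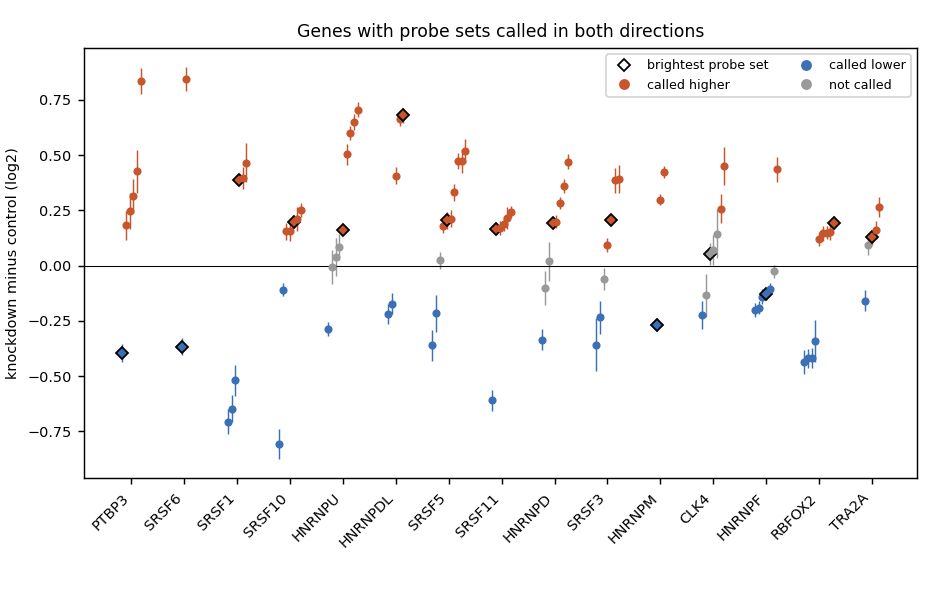
Knockdown minus control on the log2 scale for every probe set above the filter of the 15 members with probe sets called in both directions, 1 column per gene, with bars for the standard error and a diamond for the brightest probe set. Points of a gene lie on both sides of 0, as in SRSF1, where 3 probe sets lie between 0.39 and 0.47 and 3 between -0.71 and -0.52.

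SRSF1 was divided evenly. Its 3 brightest probe sets rose by 0.39, 0.39 and 0.47, and its 3 dimmer ones fell by 0.71, 0.65 and 0.52. The brightest of the falling probe sets read 7.95, 7.83 and 7.85 in control and 7.14, 7.26 and 7.11 in knockdown. Its change differed from that of the gene's brightest probe set by -1.09 (adjusted p = 3.65e-05), and those of the other 2 by -1.03 and -0.91. SRSF6, read by 2 probe sets, showed the second largest difference, 1.21 (adjusted p = 2.36e-05). Its dimmer probe set read 7.43, 7.61 and 7.50 in control and 8.32, 8.32 and 8.42 in knockdown, a rise of 0.84 where the brightest fell by 0.37.

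PTBP3 had the largest difference, 1.23 (adjusted p = 1.79e-05). Its brightest probe set stood alone in falling, and the other 5 rose by 0.18 to 0.83. The one with the largest rise read 7.22, 7.33 and 7.15 in control and 7.98, 8.10 and 8.12 in knockdown. RBFOX2 had 5 probe sets that rose by 0.12 to 0.19 and 4 that fell by 0.34 to 0.44, and among the latter was a bright one at 9.85, 9.72 and 9.68 in control and 9.38, 9.34 and 9.27 in knockdown. For RBFOX2 the fallers thus changed more than the risers.

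**Figure D3:**
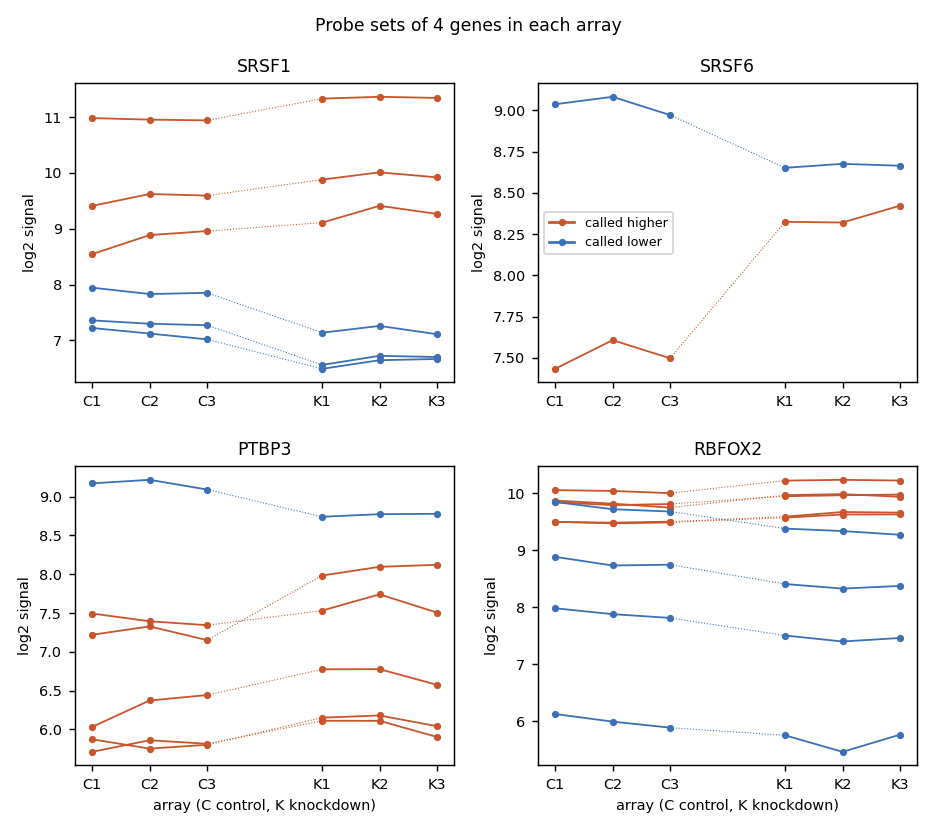
Log2 signal in each array for every probe set above the filter of SRSF1, SRSF6, PTBP3 and RBFOX2, with C1 to C3 for control and K1 to K3 for knockdown. The replicate arrays of each probe set lie close together, and rising and falling probe sets of 1 gene separate by group.

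In SRSF10 the 5 rising probe sets (0.16 to 0.25) were joined by 2 that fell by 0.11 and 0.81, the latter reading 7.79, 7.63 and 7.56 in control and 6.87, 6.95 and 6.76 in knockdown. SRSF11 had 5 that rose by 0.16 to 0.24 and 1 that fell by 0.61, from 8.08, 8.11 and 8.08 to 7.46, 7.44 and 7.53. In SRSF5, 7 probe sets rose by 0.18 to 0.52 and 2 fell by 0.36 and 0.22, the latter with groups that overlapped. SRSF3 had 4 risers and 2 dim fallers (-0.23 and -0.36), of which the second overlapped between the groups. TRA2A had 3 risers and 1 faller (-0.16).

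Among the hnRNPs, HNRNPDL had 3 probe sets that rose by 0.41 to 0.68 and 2 that fell by 0.17 and 0.22. HNRNPM fell by 0.27 on its brightest probe set and rose by 0.30 and 0.42 on the other 2. HNRNPU had 5 risers of 0.16 to 0.71 and 1 faller, a bright one at 10.58, 10.63 and 10.65 in control and 10.29, 10.37 and 10.33 in knockdown. HNRNPD had 1 faller of -0.33 beside 5 risers, and HNRNPF 1 riser of 0.44 beside 5 fallers. In the kinase CLK4 the brightest probe set was not called, 2 dimmer ones rose by 0.26 and 0.45 and 1 fell by 0.22.

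Of the 28 opposite probe sets, 14 belonged to types that by their design can read transcripts of more than 1 gene. That count leaves out the brightest probe sets, which were of such types in all these genes but HNRNPDL, PTBP3, SRSF5 and TRA2A. In an alternative chosen after the data were seen, the probe sets of those types were left out. Each gene's brightest remaining probe set then became the reference. Genes whose brightest was of such a type got another reference or dropped out. Of the pairs formed in this way 10 of 58 (17.2%, against 5.72% of all such pairs) were opposite, in HNRNPDL, PTBP3, RBFOX2, SRSF1 and SRSF11. The genes HNRNPD (-0.33), SRSF3 (-0.23) and HNRNPM (0.30) then turned direction. The control means of the 28 ranged from 5.01 to 11.00 with a median of 7.75.

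Other members moved one way on all their probe sets, some of them by unequal amounts. By the difference test no further probe set differed from the brightest in CLK2, HNRNPA2B1, HNRNPAB, MBNL1, PTBP1, QKI and SRSF9. Rises of every probe set above the filter were found in 12 members (CLK3, HNRNPA2B1, HNRNPAB, HNRNPC, HNRNPH3, HNRNPUL1, MBNL1, MBNL2, PTBP1, QKI, SRSF9 and TRA2B), which is 28.6% of the 42, against 19.9% of all genes with at least 2. All of them fell in CLK2, HNRNPA0 and SRSF7 (7.14%, against 17.8%). TRA2B rose on 9 of 9 probe sets by 0.25 to 0.57, MBNL2 on 8 of 8 by 0.48 to 0.86 and QKI on 5 of 5 by 0.71 to 1.11. HNRNPH3 rose by 0.15 on its brightest probe set but by 0.78 and 0.92 on the others, and HNRNPC by 0.23 to 1.16. SRSF7 fell by 0.20 to 0.84 over 4 probe sets.

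The brightest probe set was the quieter one in some further members. For HNRNPA3 it was not called, while the other 3 fell by 0.34 to 0.56. HNRNPK was not called on its brightest probe set (0.01) and rose by 0.07 to 0.22 on the other 5, and SRPK1 rose by 0.23 and 0.52 on its other 2. HNRNPR fell by 0.53 on 1 dim probe set, HNRNPLL by 0.17 to 0.27 on 3 of 5, and HNRNPA1 rose by 0.09 and 0.16 on 2 of 5. CELF1 fell on 2 of 3 probe sets, by 0.64 and 0.34, and its dimmest was not called (0.18). No probe set annotated to HNRNPL or PTBP2 alone was called.

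Promoters of the members were searched for common motifs. The set of RefSeq promoters used here (GRCh38.p14) held a start for 46 of the 52 members. QKI, RBFOX2, TRA2A, HNRNPA1, SRSF2 and ESRP2 had no entry in that set, which does not mean that RefSeq lists no start for them. The 250 bases before each start were searched on both strands for 4 motifs. These were the E-box CACGTG, the CCAAT box CCAAT, the TATA box TATAAA and an ETS core CCGGAAG, none of which contains another. An E-box was held by 8 of 46 members (17.4%) and by 7.73% of all 27305 genes with a listed start, and a CCAAT box by 24 (52.2%) and 37.0%. The TATA box was found in 7 members (15.2%, against 13.0%) and the ETS core in 6 (13.0%, against 10.2%). Members have more listed starts per gene, 76 starts for 46 genes against 35116 for 27305, which raises a share per gene. Per start, the shares of members and of all were 11.8% and 6.34% for the E-box, 36.8% and 32.0% for the CCAAT box, 10.5% and 10.7% for the TATA box, and 7.89% and 8.52% for the ETS core. By direction of the brightest probe set, a CCAAT box was held by 12 of 25 higher genes and 4 of 10 lower genes, and an E-box by 4 and 2. Of the 13 genes with both directions that have an entry, 4 held a CCAAT box and 4 an E-box. These matches are a description of letters in a window and name no factor. Among those 13 genes, 10 have 1 listed start and 3 have 2. Promoters with 1 listed start are shown, with the motifs in capitals and CCAAT as ATTGG where it lies on the other strand, for a gene that rose on all probe sets (HNRNPAB, chr5:178204283-178204532, plus strand), genes that fell on all (HNRNPA0, chr5:137754364-137754613, and CLK2, chr1:155273505-155273754, both minus strand) and one with both directions (SRSF3, chr6:36594112-36594361, plus strand).
HNRNPAB: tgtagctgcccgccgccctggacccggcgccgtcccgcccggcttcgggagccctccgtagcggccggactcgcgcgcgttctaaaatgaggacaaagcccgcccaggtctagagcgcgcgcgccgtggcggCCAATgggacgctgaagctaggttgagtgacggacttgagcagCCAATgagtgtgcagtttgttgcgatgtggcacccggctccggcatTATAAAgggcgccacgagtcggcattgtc
HNRNPA0: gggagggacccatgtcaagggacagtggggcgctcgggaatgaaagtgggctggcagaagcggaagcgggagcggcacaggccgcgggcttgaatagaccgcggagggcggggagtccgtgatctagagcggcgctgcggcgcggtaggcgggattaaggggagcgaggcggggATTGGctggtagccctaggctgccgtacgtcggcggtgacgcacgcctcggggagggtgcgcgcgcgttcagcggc
CLK2: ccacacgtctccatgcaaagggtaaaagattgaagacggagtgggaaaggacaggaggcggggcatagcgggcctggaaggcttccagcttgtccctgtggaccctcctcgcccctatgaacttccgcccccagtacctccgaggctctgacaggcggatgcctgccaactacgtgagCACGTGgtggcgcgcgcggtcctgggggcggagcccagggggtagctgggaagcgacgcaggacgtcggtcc
SRSF3: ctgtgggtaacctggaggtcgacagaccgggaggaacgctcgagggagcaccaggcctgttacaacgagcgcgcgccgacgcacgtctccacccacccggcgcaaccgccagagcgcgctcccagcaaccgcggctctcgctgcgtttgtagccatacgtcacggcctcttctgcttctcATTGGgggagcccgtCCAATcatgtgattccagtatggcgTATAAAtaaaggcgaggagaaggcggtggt
HNRNPAB and SRSF3 each hold 2 CCAAT boxes and a TATA box, the latter at -29 and -30 from the start, HNRNPA0 has 1 CCAAT box at -76, and CLK2 has an E-box at -72. Each of the shown promoters holds a motif, so they do not stand for all members. Others with 1 listed start held none: SRSF9 and TRA2B, which rose on all probe sets, and SRSF1, SRSF6, SRSF10 and PTBP3, with both directions.

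The remaining splicing genes were taken from 5 lists, with members left out, which together held 115 tested genes. Of these 68 were higher and 24 lower, or 80% called, with a median of 0.15. For the members those values were 28 and 10 of 50, 76% and 0.14. In the list of snRNP core proteins and branch point recognition 16 of 24 genes were higher and 1, SF3B3 (-0.35), was lower, with a median of 0.17. SF3B6 (1.15) and SF3B2 (1.14), subunits of the SF3B complex that holds the branch point, rose by over 2-fold, and SF3A3 (0.64) and the Sm protein SNRPD1 (0.57) followed. The other probe set of SF3A3 was not called (0.09).

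Among proteins of the tri-snRNP, the NTC complex and the spliceosomal helicases, 25 of 36 were higher and 6 lower, with a median of 0.18. SART1 (0.99), PRPF3 (0.97), LSM6 (0.82) and PLRG1 (0.82) rose most. PLRG1 was called higher on 2 of its 4 probe sets and SART1 on 4 of 5. Other splicing regulators were split, with 17 of 33 higher and 10 lower and a median of 0.08. SYNCRIP (0.80), an hnRNP by its older name hnRNP Q, TARDBP (0.60), MATR3 (0.57) and RBMX (0.49), also called hnRNP G, rose. None of these 4 had a probe set called lower. Other genes of this list had probe sets called both ways, such as PNISR (5 higher, 4 lower) and NONO (3 higher, 3 lower).

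Genes for the phosphorylation and import of SR proteins were evenly mixed, with 4 of 9 higher and 3 lower and a median of -0.05. TOP1 (0.88), a topoisomerase that also phosphorylates SR proteins, and the phosphatase subunit PPP1CC (0.64) rose, while the kinase DYRK1A (-0.66) and the phosphatase subunit PPP1CA (-0.60) fell. In the list of the exon junction complex and nonsense-mediated decay 6 of 13 were higher and 4 lower, with a median of 0.08. RBM8A (0.82), CASC3 (0.54) and MAGOHB (0.42), parts of the junction complex, rose on their brightest probe sets, and the decay factor SMG6 fell by 0.50. RBM8A and MAGOHB also had falling probe sets, down to -0.74 and -0.31, and the other probe set of SMG6 was not called (-0.06).

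**Figure D4:**
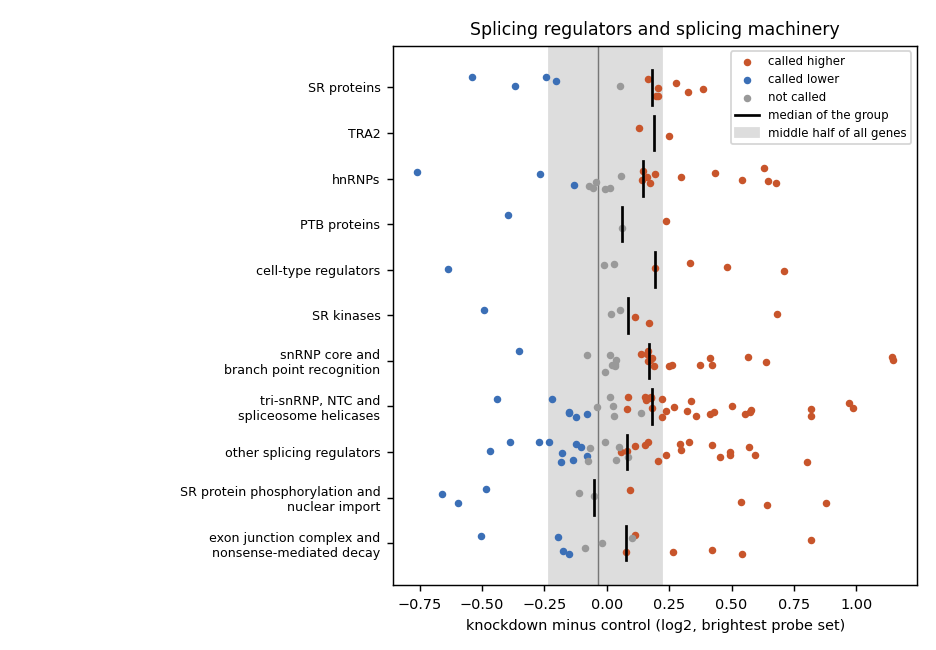
Knockdown minus control on the log2 scale, for the brightest probe set of each tested gene, in the 6 roles of the members and the 5 lists of other splicing genes. Black bars are medians of each group, the grey line is the median of all genes (-0.03), the grey band runs from the lower to the upper quartile of all genes (-0.23 to 0.22), and group medians lie between -0.05 and 0.19.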

How the data were processed

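Gene expression was measured on 6 Affymetrix arrays, 3 per group, grouped by the genotype in the labels. The values are log2 signals deposited by the authors in 1 table of 49395 probe sets. MAS5 is named per the submitters' processing notes. The genome build of the array is not given in the sources used here, and no version of MAS5 is named. That the scale is log2 was read from the range of the values. Without detection calls, a low signal does not show that a transcript is absent, and scaling between arrays would hide a change shared by all genes.

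Names came from the platform annotation. Probe sets with several symbols (1832) or none (2473) were left out. All 52 members matched a RefSeq gene table (GRCh38.p14) by Entrez ID, and 0 symbols changed. The lowest 25% of genes by mean were left out (lowest mean kept 4.635). Groups were compared with limma 3.58.1 in R 4.3.3 (lmFit, eBayes with an intensity trend), tested on simulated data first. EIF3C was taken from a fit over all 49293 human probe sets, as were the calls of single probe sets. Members, roles and lists were chosen with earlier results of these data known. Named were all members, with array values for those changed at least 1.5-fold and the 2 called members of each role that changed most, members with a probe set differing by 0.5 or more, and up to 4 called genes per list. Array values of further probe sets, and genes named as exceptions, were chosen after their values were seen. Alternatives were other filters, normalizations, probe set rules and variance priors, array weights, a replicate block and each array left out.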

Additional observations from a re-analysis of the deposited data

How the results depend on the processing

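Averaging each gene's probe sets, 0 members fell by at least 1.5-fold, not 2, and 5 signs turned: HNRNPM 0.15, PTBP3 0.27, RBFOX2 -0.095, SRSF1 -0.10 and SRSF6 0.24. Of the 49 members tested there, 32 kept their call or the lack of one, 6 lost their call (CLK1, HNRNPF, SRSF10, SRSF11, SRSF12 and SRSF3) and 6 gained one (HNRNPA3, HNRNPK, HNRNPLL, HNRNPR, SRPK1 and SRSF2). With only probe sets ending in _at or _a_at, chosen after the data were seen, 1 member fell by that much, 27 pairs differed, 18 of them by 0.5 or more, 10 pairs in 5 members were opposite, and HNRNPD (-0.33), HNRNPM (0.30) and SRSF3 (-0.23) turned; fewer members (41) and pairs (58) were tested there. Leaving out 1 array gave 25 to 29 members higher, 10 to 12 lower, 4 to 5 higher and 2 to 3 lower by 1.5-fold, 65 to 68 list genes higher and 21 to 26 lower, 54 to 60 differing pairs, 28 to 32 by 0.5 or more, 25 to 26 opposite pairs in 13 to 14 members, and EIF3C at -2.21 to -2.15. No label says that same-numbered arrays shared a day or batch, so the numbers were not taken as pairs. Those arrays deviated together at correlations of 0.0741, 0.105 and 0.167. With the replicate block 28 members were higher and 10 lower, and 68.4% of all genes were called, beside 66.5% without it. The number of arrays and 1 clone limit the precision.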

Other observations

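HNRNPH2, a close relative of HNRNPH1, was read only by probe sets shared with the read-through gene RPL36A-HNRNPH2 and so was no member. All 3 of them fell, by 0.70, 0.69 and 0.49, and the brightest read 10.34, 10.28 and 10.27 in control and 9.55, 9.63 and 9.62 in knockdown (limma over all human probe sets, adjusted p = 1.45e-10). HNRNPH1 rose by 0.63 on its own probe set, and the difference between both genes was not tested. Probe sets shared by HNRNPA3 and the pseudogene HNRNPA3P1 fell by 0.20 and 0.41. Of the 2 shared by HNRNPA1 and HNRNPA1P10, 1 was higher (0.06) and 1 was not called (-0.03). A probe set shared by HNRNPL and ECH1 fell by 0.16 (adjusted p = 0.00117), with groups that did not overlap.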
